A study of Mus musculus with 9 samples.

Results

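Macrophages are phagocytes of the innate immune system that live in every tissue, including between the fibres of skeletal muscle. They depend on signals through the receptor Csf1r and on the transcription factor PU.1 (gene Spi1), take up debris and opsonised particles through scavenger, complement and Fc receptors, and digest it in lysosomes rich in cathepsins and CD68. In healthy muscle resident macrophages, which commonly carry Lyve1, Mrc1 and Cd163, are sparse, while damaged muscle recruits monocytes that carry Ccr2 or Cx3cr1.

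The 33 genes described here are markers of macrophages and close relatives, chosen by name, and all 33 were found among the 18062 genes of the deposited table. For 32 the symbol matched directly, and Spi1 was found under its older symbol Sfpi1 through its RefSeq accession. The measurements come from RNA sequencing of a calf muscle (the white part of gastrocnemius) in mice that lack acid alpha-glucosidase (Gaa), the lysosomal enzyme that degrades glycogen, and in wild-type mice. Loss of this enzyme causes Pompe disease in humans, and the comparison asks how expression in the muscle of this mouse model differs from that of the wild type. The knock-out group holds 5 libraries from mice aged 5 months in which exon 6 of Gaa was disrupted, and loxP sites lie in the introns on either side of it. The wild-type group holds 4 libraries, 2 from mice aged 5 months and 2 from mice aged 6 months. All mice were of a mixed BL6/129j background, and the knock-out colony was bred by brother-sister mating for over 20 generations. No treatment was recorded for either group. The value columns ko1 to ko5 match 1 knock-out sample each, but wt1 to wt4 carry no age, so the wild-type ages were not separated. Nothing on library batches is given in the sources used here, and a batch that follows genotype cannot be told apart from it. Other differences between the knock-out colony and the wild-type mice cannot be told apart from the loss of Gaa either.

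Values are RPKM, read numbers scaled to transcript length and to the mapped reads of each library, summed over the transcripts of a gene, so levels can be set side by side between genes. Gaa itself was at 3.11 to 3.64 RPKM in the knock-out and 46.0 to 56.0 RPKM in the wild type, so that the knock-out mean came to 6.97% of that in the wild type (exact two-sided permutation p = 0.0079, the smallest that the 126 splits of 9 libraries allow). Fibre genes marked the tissue as skeletal muscle in all 9 libraries: 8 such genes summed to 78640 to 87471 RPKM in knock-out libraries and 74348 to 80201 in the wild type. By the step that a single read makes in low values, the estimated number of reads behind 1 RPKM of a 1-kilobase transcript ran from 17.5 to 37.3 in knock-out libraries and from 37.1 to 64.4 in wild-type libraries. The shallowest library was ko3. Genotypes differed widely in this table, with 51.8% of the 11032 tested genes past the threshold used below, and on the log2 scale the fold change of the median gene was 0.12, so member changes are best read against that background. The labels number libraries without naming mice, so p-values measure only the spread between libraries.

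The promoters of members that rose most are shown first, and PU.1 is itself a member. Whether PU.1 had a part in the rise was not tested. RefSeq promoter windows of the build GRCm38.p6, from 250 bases before to 50 bases after a gene's start, were matched for 24 of the 33 members (the first listed start of each gene was taken). Those without an entry were Csf1r, Spi1, Emr1, Tyrobp, C1qa, Itgb2, Cd14, Msr1 and Lyve1. The 4 printed are those of the 4 members with the largest fold among those that rose and had an entry. Capitals mark GAGGAA, the core of the PU.1 site, on either strand, so that a match on the reverse strand reads TTCCTC.
Cd68: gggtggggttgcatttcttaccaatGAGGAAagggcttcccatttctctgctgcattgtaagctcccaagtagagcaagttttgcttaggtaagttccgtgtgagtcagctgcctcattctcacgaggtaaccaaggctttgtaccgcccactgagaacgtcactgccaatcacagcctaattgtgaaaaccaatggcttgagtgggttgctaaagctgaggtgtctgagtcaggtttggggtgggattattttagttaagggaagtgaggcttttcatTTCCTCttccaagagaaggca
Trem2: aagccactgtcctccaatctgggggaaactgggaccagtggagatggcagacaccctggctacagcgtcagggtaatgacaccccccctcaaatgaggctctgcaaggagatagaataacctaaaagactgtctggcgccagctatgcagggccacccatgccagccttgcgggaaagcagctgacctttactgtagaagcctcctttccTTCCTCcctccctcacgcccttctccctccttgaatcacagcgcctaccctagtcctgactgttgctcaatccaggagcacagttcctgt
Mpeg1: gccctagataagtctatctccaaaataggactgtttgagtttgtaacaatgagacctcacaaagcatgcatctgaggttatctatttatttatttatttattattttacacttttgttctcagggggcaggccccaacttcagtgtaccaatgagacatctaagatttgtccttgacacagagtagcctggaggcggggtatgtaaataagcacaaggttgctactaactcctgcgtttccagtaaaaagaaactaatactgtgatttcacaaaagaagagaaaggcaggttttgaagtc
Ctss: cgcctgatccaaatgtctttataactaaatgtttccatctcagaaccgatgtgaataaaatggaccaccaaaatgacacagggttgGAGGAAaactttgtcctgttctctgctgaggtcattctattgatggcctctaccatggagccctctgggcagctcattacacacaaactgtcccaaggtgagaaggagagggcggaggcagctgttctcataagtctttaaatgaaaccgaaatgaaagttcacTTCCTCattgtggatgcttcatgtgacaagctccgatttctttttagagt
The Cd68 window (chr11:69666121-69666420, minus strand) held GAGGAA at 2 places, the Trem2 window (chr17:48346151-48346450, plus strand) at 1, the Ctss window (chr3:95526536-95526835, plus strand) at 2 and the Mpeg1 window (chr19:12460520-12460819, plus strand) at none. In the Ctss window one match began at the start site itself, and in the Trem2 window the match began 40 bases before it, at position -40. Across members, 14 of the 24 windows held at least 1 match, against 28.3% of 27025 promoters of the same length. The 24 mix members that rose with members that did not, and the most matches, 3 each, were in Itgam and Mrc1, which did not pass. Whether matches follow the rise was not tested. The E-box CACGTG, which reads the same on both strands and does not overlap GAGGAA, was in none of the 24 windows and in 7.24% of all promoters. These matches describe letters in the windows only, and no match says nothing of binding elsewhere.

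As a group, the macrophage markers were higher in the knock-out. Their summed level was 99.0, 108, 107, 169 and 116 RPKM in ko1 to ko5 and 54.0, 45.6, 47.4 and 59.7 RPKM in wt1 to wt4. The groups did not overlap, the knock-out mean (119.9 ± 28.1, SD, n = 5) was 2.32 times the wild-type mean (51.7 ± 6.43, SD, n = 4), and without Lyz2, the most abundant member, the factor was 2.23. In bulk muscle, fewer cells of a type and less RNA per cell cannot be told apart, nor can more cells and more RNA per cell.

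Each gene with a mean of at least 0.5 RPKM over the 9 libraries was tested with limma on log2(RPKM + 0.1), with Benjamini-Hochberg adjustment over all 11032 genes and calls at an adjusted p under 0.05. The fold changes belong to that scale, which understates changes of low genes. Of the 33 members, 25 passed the filter, of which 20 rose, 1 fell and 4 did not pass the test, where 37.0% of all tested genes rose and 14.8% fell. The median log2 fold change of the 25 was 1.08, against 0.12 for all genes tested. Among these 25, 7 passed the filter only through the knock-out (Spi1, Emr1, Trem2, Itgb2, Ccr2, Mpeg1 and Cybb had wild-type means under 0.5 RPKM), so the filter favoured a rise in these genes. Of the 18 with a wild-type mean of at least 0.5 RPKM, 13 rose and 1 fell. A fit with no filter, over 18062 genes, covered all 33 members: 26 rose, none fell and 7 did not pass, where 24.7% of all genes rose and 10.1% fell. Lyve1, which fell in the filtered fit, was at adjusted p = 0.053 in this one. The members near 0 were Cx3cr1, Fcgr1, Itgax, Clec7a and Msr1, all with means under 0.5 RPKM in both genotypes, and Aif1, Ptprc and Itgam also stayed below the filter.

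**Figure D1:**
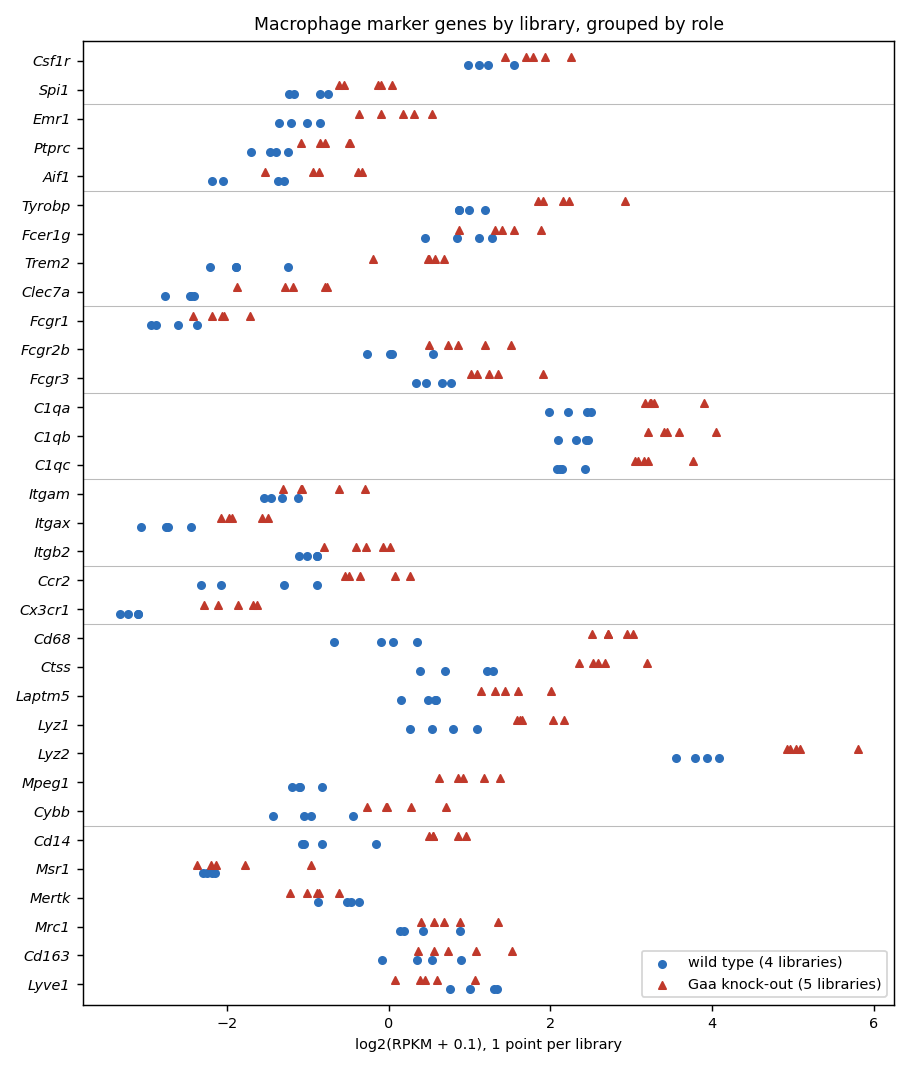
Level of all 33 macrophage markers on the log2(RPKM + 0.1) scale (x axis), 1 point per library, with circles for the 4 wild-type and triangles for the 5 knock-out libraries and lines between groups of related role. In 22 of the 33 genes all knock-out points lie to the right of all wild-type points, and Lyz2 and the 3 C1q genes are the most abundant.

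All 5 knock-out values lay above all 4 wild-type values for 22 of the 33 members, for no member did they lie below, and 11 overlapped. Over all 18062 genes the knock-out values lay above in 21.7% and below in 8.29%, as the plot of levels by library shows for the members alone.

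All 7 genes of the lysosome and of the killing of microbes rose, by 2.07-fold to 7.35-fold, where 37.0% of all tested genes rose. Among these, Mpeg1 and Cybb passed the filter only through the knock-out, which favoured a rise. CD68 is a heavily glycosylated protein of macrophage lysosomes. Its gene was at 5.63, 8.01, 6.43, 6.44 and 7.61 RPKM in ko1 to ko5 and 1.17, 0.523, 0.936 and 0.832 RPKM in wt1 to wt4. The groups lay far apart, and the increase was the largest among the members (log2 fold change 2.88, SE 0.18, limma adjusted p = 1.8e-07). Ctss, a cysteine protease that also trims the chain bound to class II molecules, was at 5.01, 6.26, 5.66, 9.06 and 5.93 RPKM in ko1 to ko5 and 2.22, 1.21, 1.52 and 2.34 RPKM in wt1 to wt4. Every knock-out value was above every wild-type value (log2 fold change 1.77, SE 0.20, limma adjusted p = 2.4e-05). Mpeg1, a pore-forming protein that attacks engulfed bacteria, was at 1.44, 1.78, 1.72, 2.49 and 2.17 RPKM in ko1 to ko5 and 0.464, 0.335, 0.367 and 0.363 RPKM in wt1 to wt4. The wild-type values were tight and the groups lay far apart (log2 fold change 2.05, SE 0.16, limma adjusted p = 1.0e-06).

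Lysozymes cleave the cell walls of bacteria, and Lyz2 is the form usual in macrophages. Lyz2 was the most abundant member, at 30.2, 31.2, 32.8, 55.6 and 34.0 RPKM in ko1 to ko5 and 15.2, 11.7, 13.7 and 16.9 RPKM in wt1 to wt4. The library ko4 stood well above the other knock-out libraries, and the groups did not overlap (log2 fold change 1.32, SE 0.17, limma adjusted p = 5.4e-05). Lyz1, its direct neighbour on chromosome 10 and a near-identical copy, was at 2.97, 2.91, 3.98, 4.41 and 3.04 RPKM in ko1 to ko5 and 1.35, 1.09, 1.64 and 2.04 RPKM in wt1 to wt4 (log2 fold change 1.14, SE 0.17, limma adjusted p = 0.00021). Reads could have been split between both copies, so the separate levels are uncertain. Cybb, the catalytic subunit of the phagocyte oxidase, was at 0.727, 0.887, 0.877, 1.53 and 1.11 RPKM in ko1 to ko5 and 0.412, 0.272, 0.384 and 0.635 RPKM in wt1 to wt4, with ko1 only slightly above wt4 (log2 fold change 1.10, SE 0.23, limma adjusted p = 0.0018). Laptm5, a lysosomal membrane protein of blood cells, rose 2.07-fold without overlap, from 1.27 ± 0.179 (SD, n = 4) to 2.78 ± 0.699 (SD, n = 5) RPKM (adjusted p = 0.00022, limma).

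Complement C1q, the recognition part of the classical pathway, is built from chains of 3 genes that lie next to each other on chromosome 4, and tissue macrophages are a main source of it. All 3 genes rose, where 37.0% of all tested genes did. C1qa was at 8.89, 9.62, 9.27, 14.8 and 9.40 RPKM in ko1 to ko5 and 5.35, 4.56, 3.84 and 5.54 RPKM in wt1 to wt4. C1qb was at 10.5, 10.8, 9.13, 16.4 and 11.9 RPKM in ko1 to ko5 and 5.41, 4.87, 4.18 and 5.33 RPKM in wt1 to wt4. C1qc was at 8.81, 8.34, 8.18, 13.5 and 9.15 RPKM in ko1 to ko5 and 5.29, 4.25, 4.14 and 4.32 RPKM in wt1 to wt4. In each, ko4 was the highest library and no knock-out value reached down to the wild type. The log2 fold changes were 1.08 for C1qa, 1.21 for C1qb and 1.06 for C1qc (limma adjusted p = 0.00012, 3.6e-05 and 6.4e-05).

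Among adaptors with an ITAM, the motif through which many activating receptors signal, 1 rose and 1 did not pass. Tyrobp (DAP12), which pairs with Trem2 among others, was at 3.65, 4.36, 3.48, 7.49 and 4.57 RPKM in ko1 to ko5 and 1.90, 1.73, 1.72 and 2.19 RPKM in wt1 to wt4. Its groups did not overlap (log2 fold change 1.23, SE 0.19, limma adjusted p = 0.0002). Fcer1g, the shared chain of activating Fc receptors, was at 2.53, 1.73, 2.83, 3.58 and 2.39 RPKM in ko1 to ko5 and 1.26, 2.33, 1.69 and 2.07 RPKM in wt1 to wt4, with ko2 below wt2 and wt4. Its difference did not pass (log2 fold change 0.48, SE 0.20, limma adjusted p = 0.065), but did without ko2 (adjusted p = 0.017) or without wt2 (0.035).

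Trem2 is a receptor for lipids and lipoproteins on macrophages and microglia. It was at 1.3, 1.5, 0.777, 1.31 and 1.39 RPKM in ko1 to ko5 and 0.320, 0.170, 0.171 and 0.116 RPKM in wt1 to wt4, a 4.66-fold rise (log2 fold change 2.22, SE 0.22, limma adjusted p = 9.4e-06) that rests on an estimated 5.9 to 12.9 reads in the wild-type libraries. Within each library, the log2 ratio of Trem2 to Tyrobp was -1.80 ± 0.42 (SD, n = 5) in the knock-out and -2.79 ± 0.47 (SD, n = 4) in the wild type, a difference of 0.99 (exact permutation p = 0.024, 0.036 adjusted over the 3 ratios tested). The pair was chosen with earlier results of these data known. It was tested only because Trem2 passed the filter, which it did through the knock-out alone, so the test is not independent of the rise of Trem2. Values of the groups overlapped, since ko4 at -2.42 lay below wt1 at -2.25, and with a pseudocount of 1 the difference was -0.04 (adjusted p = 0.87), so the ratio depends on how low values are handled. When single libraries were left out it passed only without ko4 (adjusted p = 0.043) or wt1 (0.027), and otherwise reached 0.08 to 0.086. Clec7a (dectin-1), a receptor for fungal beta-glucan, stayed under the filter at 0.311, 0.341, 0.173, 0.477 and 0.487 RPKM in ko1 to ko5 and 0.0824, 0.0464, 0.0883 and 0.0829 RPKM in wt1 to wt4. Without a filter it rose (log2 fold change 1.34, limma adjusted p = 0.0016).

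**Figure D2:**
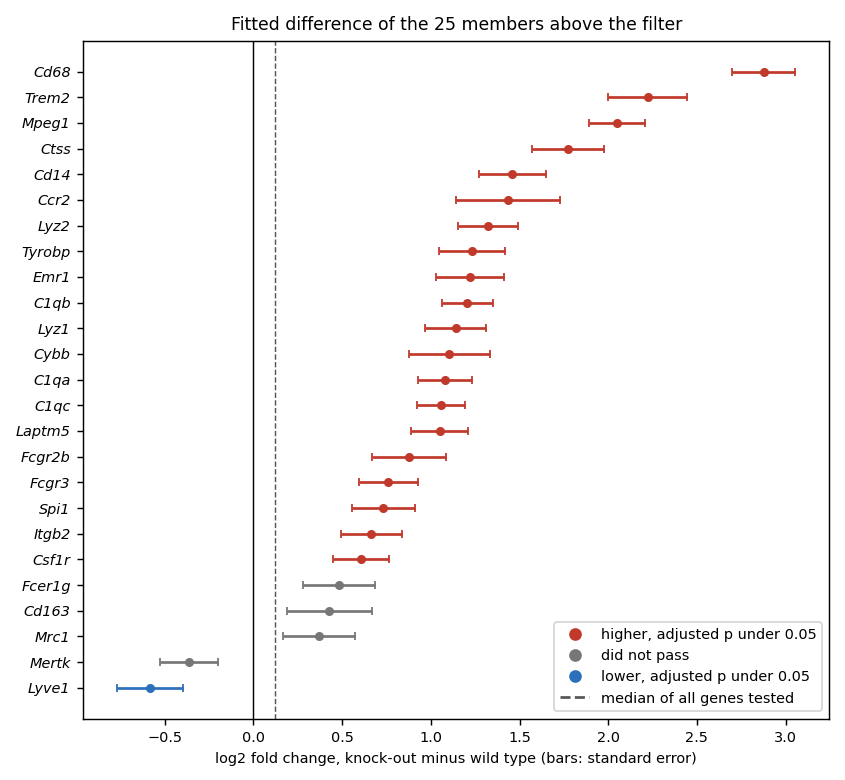
Fitted log2 fold change, knock-out minus wild type (x axis), with its standard error, for the 25 members above the filter in order of size. Cd68 stands highest at 2.88, most members lie near 1, and Lyve1 at -0.58 is the only member called lower, while the dashed line marks the median of all tested genes at 0.12.

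Receptors for the constant part of antibodies let macrophages take up coated particles. Fcgr3, an activating receptor, was at 2.04, 1.92, 2.26, 3.64 and 2.44 RPKM in ko1 to ko5 and 1.61, 1.17, 1.28 and 1.49 RPKM in wt1 to wt4, with no overlap (log2 fold change 0.76, SE 0.17, limma adjusted p = 0.0027). Fcgr2b, the inhibitory one, was at 1.31, 1.72, 1.57, 2.76 and 2.18 RPKM in ko1 to ko5 and 0.908, 0.733, 0.927 and 1.36 RPKM in wt1 to wt4, where ko1 lay below wt4 (log2 fold change 0.88, SE 0.21, limma adjusted p = 0.0044). The log2 ratio of Fcgr2b to Fcgr3 was -0.36 ± 0.20 (SD, n = 5) in the knock-out and -0.48 ± 0.28 (SD, n = 4) in the wild type (exact permutation p = 0.5, and 0.5 adjusted), which does not show that they moved alike. Their coding sequences are related and they lie close together on chromosome 1, so reads may have been shared. Fcgr1, the high-affinity receptor, was near 0 at 0.119, 0.139, 0.0870, 0.205 and 0.143 RPKM in ko1 to ko5 and 0.0932, 0.0306, 0.0358 and 0.0648 RPKM in wt1 to wt4, an estimated 3 to 19.8 reads per library. It rose without a filter (log2 fold change 0.61, limma adjusted p = 0.017), a call lost without wt2 (adjusted p = 0.054) or wt3 (0.052).

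The genes of macrophage growth and identity both rose, by 1.52-fold and 1.66-fold, where 37.0% of all tested genes rose. Of these, Spi1 passed the filter only through the knock-out. Csf1r, the receptor for the growth factors Csf1 and Il34, was at 2.61, 3.14, 3.36, 4.68 and 3.71 RPKM in ko1 to ko5 and 2.24, 1.87, 2.07 and 2.82 RPKM in wt1 to wt4, with ko1 below wt4 (log2 fold change 0.60, SE 0.16, limma adjusted p = 0.0071). Its call ended when wt1 and wt2 were left out (adjusted p = 0.059). Spi1, which encodes PU.1, was at 0.555, 0.583, 0.930, 0.815 and 0.832 RPKM in ko1 to ko5 and 0.342, 0.495, 0.325 and 0.456 RPKM in wt1 to wt4, with no overlap (log2 fold change 0.73, SE 0.18, limma adjusted p = 0.0052). Emr1 encodes F4/80, a surface protein much used to identify mouse macrophages, and was at 0.675, 0.838, 1.15, 1.35 and 1.03 RPKM in ko1 to ko5 and 0.454, 0.333, 0.291 and 0.394 RPKM in wt1 to wt4. Its rise was 2.33-fold and without overlap (limma adjusted p = 0.00024). Ptprc (CD45), carried by all white blood cells, was under the filter at 0.370, 0.454, 0.611, 0.615 and 0.481 RPKM in ko1 to ko5 and 0.260, 0.206, 0.280 and 0.323 RPKM in wt1 to wt4. Without a filter it rose by 0.71 on the log2 scale (limma adjusted p = 0.007), and with only wt3 and wt4 as wild type it did not pass (0.072). Aif1 (Iba1), an actin-binding protein of macrophages, was at 0.247, 0.666, 0.451, 0.697 and 0.423 RPKM in ko1 to ko5 and 0.306, 0.121, 0.141 and 0.287 RPKM in wt1 to wt4, with ko1 below wt1 and wt4. Its call without a filter (adjusted p = 0.038, limma) was lost when any of ko2, ko3, ko4, ko5, wt2 or wt3 was left out (adjusted p from 0.064 to 0.11) and rests on 4 to 22.7 estimated reads per library.

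Leukocyte integrins pair an alpha chain with the beta chain Itgb2. Itgb2 was at 0.657, 0.853, 0.472, 0.908 and 0.721 RPKM in ko1 to ko5 and 0.440, 0.443, 0.362 and 0.396 RPKM in wt1 to wt4, and rose (log2 fold change 0.66, SE 0.17, limma adjusted p = 0.0073) although ko3 was only a little above wt1 and wt2. Itgam (CD11b) stayed under the filter at 0.303, 0.373, 0.373, 0.714 and 0.553 RPKM in ko1 to ko5 and 0.264, 0.242, 0.301 and 0.358 RPKM in wt1 to wt4, with ko1 below wt4. Its difference did not pass without a filter (log2 fold change 0.49, limma adjusted p = 0.11). Itgax (CD11c), its direct neighbour on chromosome 7 and also found on dendritic cells, was near 0 at 0.137, 0.255, 0.154, 0.237 and 0.161 RPKM in ko1 to ko5 and 0.0483, 0.0197, 0.0829 and 0.0507 RPKM in wt1 to wt4. All knock-out values were above the wild type and the gene rose without a filter (log2 fold change 0.94, limma adjusted p = 0.0019). The planned ratios of Itgam and Itgax to Itgb2 were not computed, because neither alpha chain passed the filter.

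Both chemokine receptors that mark monocytes were low and higher in the knock-out. Ccr2, the receptor for Ccl2, was at 0.588, 0.609, 0.956, 1.10 and 0.681 RPKM in ko1 to ko5 and 0.137, 0.101, 0.308 and 0.440 RPKM in wt1 to wt4. The wild-type columns wt3 and wt4 lay above wt1 and wt2, and all knock-out values lay above all of them (log2 fold change 1.44, SE 0.30, limma adjusted p = 0.0017). Cx3cr1, the receptor for fractalkine, was at 0.132, 0.223, 0.106, 0.213 and 0.173 RPKM in ko1 to ko5 and 0.00719, 0, 0.0166 and 0.0169 RPKM in wt1 to wt4, an estimated 0 to 4 reads in the wild type and 7 to 29.8 in the knock-out. It rose without a filter (log2 fold change 1.27, limma adjusted p = 0.00017), but the size rests on the pseudocount, with 0.21 at 1 and 3.21 at 0.01.

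Scavenger and uptake receptors did not move together: of 5 above the filter, 1 rose, 1 fell and 3 did not pass. Of all tested genes, 37.0% rose and 14.8% fell. Cd14, which hands bacterial lipopolysaccharide to its signalling receptor, was at 1.36, 1.71, 1.32, 1.84 and 1.36 RPKM in ko1 to ko5 and 0.376, 0.793, 0.382 and 0.462 RPKM in wt1 to wt4, and rose without overlap (log2 fold change 1.46, SE 0.19, limma adjusted p = 6.4e-05). Mrc1, the mannose receptor, was at 1.22, 1.51, 1.75, 2.46 and 1.37 RPKM in ko1 to ko5 and 1.04, 0.997, 1.24 and 1.75 RPKM in wt1 to wt4, with wt4 above 3 of the 5 knock-out libraries (log2 fold change 0.37, SE 0.20, limma adjusted p = 0.14). Without wt4 it passed (adjusted p = 0.042). Cd163, the receptor that clears haemoglobin bound to haptoglobin, was at 1.18, 1.38, 1.57, 2.77 and 2.02 RPKM in ko1 to ko5 and 1.17, 0.842, 1.35 and 1.76 RPKM in wt1 to wt4 (log2 fold change 0.43, SE 0.24, adjusted p = 0.16). With wt1 and wt2 alone as wild type both Mrc1 and Cd163 passed (0.035 and 0.043). Msr1, a receptor for modified lipoproteins, was near 0 at 0.118, 0.191, 0.0928, 0.415 and 0.127 RPKM in ko1 to ko5 and 0.110, 0.126, 0.103 and 0.119 RPKM in wt1 to wt4, with ko4 apart from the rest, and did not pass (adjusted p = 0.38 without a filter).

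Lyve1, a hyaluronan receptor of resident macrophages and of lymphatic vessels, went the other way, at 0.958, 1.27, 1.21, 1.99 and 1.42 RPKM in ko1 to ko5 and 1.90, 2.44, 1.59 and 2.36 RPKM in wt1 to wt4. Only ko4 overlapped the wild type, lying above wt1 and wt3 (log2 fold change -0.58, SE 0.18, limma adjusted p = 0.02). The call ended without wt2 (adjusted p = 0.06), without wt4 (0.057), with only wt3 and wt4 as wild type (0.099) and without the filter (0.053). Mertk, a receptor that binds dying cells through Gas6 and protein S, was at 0.330, 0.554, 0.396, 0.440 and 0.451 RPKM in ko1 to ko5 and 0.445, 0.623, 0.674 and 0.602 RPKM in wt1 to wt4. It was lower on average but did not pass (log2 fold change -0.36, SE 0.17, limma adjusted p = 0.086), and it did pass with each library centred on its median (adjusted p = 0.02), with quantile normalization (0.0049) and with a transcript length trend removed (0.031), and without ko2 (0.049) or wt1 (0.042).

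Lyve1 and Mrc1 both mark resident macrophages, so their ratio was taken within each library. The log2 ratio of Lyve1 to Mrc1 was -0.32, -0.23, -0.50, -0.29 and 0.04 in ko1 to ko5 and 0.81, 1.21, 0.34 and 0.42 in wt1 to wt4. The groups did not overlap, and the means differed by -0.95 (exact permutation p = 0.0079, the smallest the design allows, 0.024 adjusted over the 3 ratios). The pair was chosen with the fall of Lyve1 already known, so the test is not independent of that choice. With any single library left out the difference was -1.07 to -0.78 and the groups still did not overlap. Each time the unadjusted exact p was the smallest that the remaining splits allow (0.029 without a knock-out and 0.018 without a wild-type library), so whether the adjusted p passes there says nothing about stability.

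**Figure D3:**
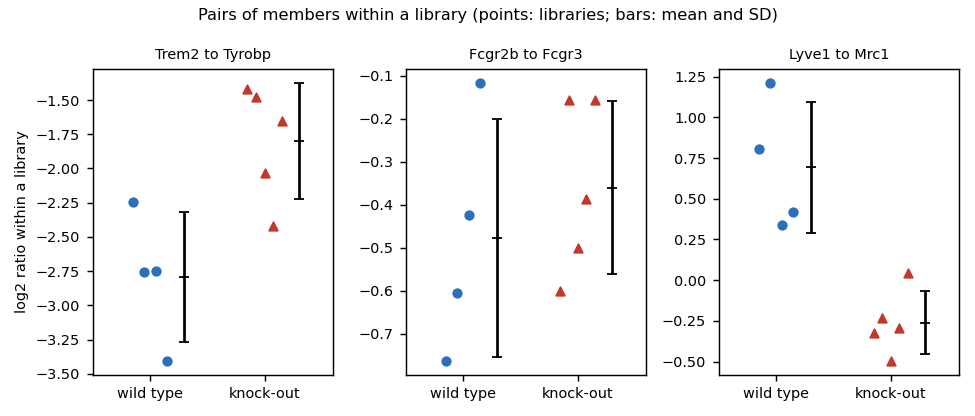
Log2 ratio of 2 members within a library (y axis), for the 3 pairs in which both members passed the filter, with 1 point per library and the mean and SD beside them. The ratio of Lyve1 to Mrc1 parts the genotypes, that of Trem2 to Tyrobp overlaps in part, and that of Fcgr2b to Fcgr3 overlaps throughout.

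One knock-out library, ko4, had more of most members than the others. Of the 33 members, 26 were highest among the knock-out libraries in ko4, including 21 of the 25 above the filter, where 19.6% of all tested genes were highest in ko4. Over those 25 members the median ratio of ko4 to the median of the other 4 knock-out libraries was 1.56, against 1.01 over all tested genes. Cd68 and Trem2 did not share it: their ratios were 0.918 and 0.978, while Tyrobp was at 1.87, Lyz2 at 1.74 and C1qa at 1.59. Without ko4 the same 20 members rose and Lyve1 fell, with a median log2 fold change of 0.94 for the 25 in place of 1.08. The ratio of Cd68 to C1qa, looked at after the values were seen and given without a test, was 0.633, 0.833, 0.693, 0.434 and 0.810 in ko1 to ko5 and 0.219, 0.115, 0.243 and 0.150 in wt1 to wt4, so ko4 was the lowest knock-out library and still lay above the wild type.

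**Figure D4:**
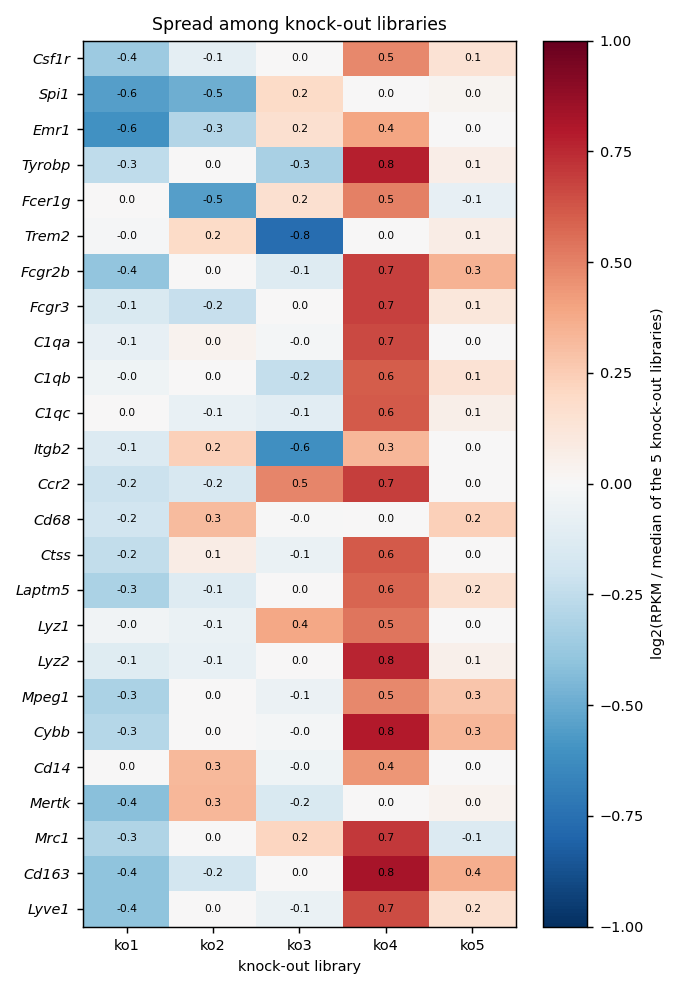
Level of the 25 members above the filter in each knock-out library, as the log2 ratio to the median of the 5 knock-out libraries (colour and printed value), with members in rows by role and libraries in columns. The ko4 column is above the median for nearly all members, while Cd68, Trem2, Mertk and Spi1 are at about 0 in it.

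Other genes tied to macrophages were taken from lists chosen with earlier results of these data known. The counts in these lists, here and below, are therefore not independent of those results. Among signals for their growth, recruitment and survival, 5 of 11 measured genes rose and none fell (3 of 11 with quantile normalization), a share near the 37.0% of all tested genes that rose. Of the 9 with a wild-type mean of at least 0.5 RPKM, 3 rose, since Csf2ra and Csf2rb passed the filter only through the knock-out. Il34, a ligand of Csf1r, was at 3.0, 3.01, 2.47, 2.84 and 2.85 RPKM in ko1 to ko5 and 1.47, 1.35, 2.25 and 1.48 RPKM in wt1 to wt4 (log2 fold change 0.78, SE 0.13, limma adjusted p = 0.00047), while Csf1, its other ligand, was at 2.27 ± 0.398 (SD, n = 5) RPKM in the knock-out and 2.17 ± 0.332 (SD, n = 4) RPKM in the wild type (limma adjusted p = 0.75). The receptor chains Csf2ra and Csf2rb rose 2.14-fold and 1.73-fold, Gas6, the ligand of Mertk, 1.3-fold (not with quantile normalization, adjusted p = 0.067), and the fifth was Axl, named after its value was seen. Ccl2, the ligand of Ccr2, scattered at 1.03, 0.688, 0.979, 1.15 and 0.344 RPKM in ko1 to ko5 and 0.931, 2.46, 0.307 and 0.260 RPKM in wt1 to wt4, with both the highest and the lowest values in the wild type, and did not pass (limma adjusted p = 0.81), though it did with only wt3 and wt4 as wild type (0.016). Of the receptor signalling list 4 of 5 rose and none fell (2 of the 3 with a wild-type mean of at least 0.5 RPKM, which Pirb and Lilrb4 lacked), with the inhibitory receptors Pirb and Lilrb4 2.32-fold and 2.32-fold higher, Sirpa, the receptor for CD47, 1.31-fold, and Syk, the kinase that ITAMs recruit, 1.33-fold. The Sirpa call ended with its highest transcript alone (adjusted p = 0.073). Syk did not pass with the libraries centred (adjusted p = 0.13), with quantile normalization (0.18), with no filter (0.061), or without any of ko2, ko3, ko4, ko5, wt1, wt2 or wt3 (0.055 to 0.12).

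Lipid and lysosome genes known from activated macrophages, many of which other cells of muscle express as well, had 14 of 19 measured members higher and 1 lower (Abca1, named after its value was seen), where 37.0% of all tested genes rose and 14.8% fell. Lgmn rose 3.41-fold, Cd63 2.64-fold, Lgals3 (galectin-3) 2.44-fold and Spp1 (osteopontin) 2.40-fold. Cytoskeleton and adhesion genes of blood cells had 6 of 7 higher and none lower (4 of the 5 with a wild-type mean of at least 0.5 RPKM, which Cd52 and Cd53 lacked), led by Evi2a (4.22-fold), Cd52 (2.99-fold), Coro1a (2.36-fold) and Lcp1 (2.17-fold). In contrast, resident macrophage genes had none of 12 higher and 3 lower. Cbr2, a carbonyl reductase, was at 8.0, 7.15, 6.90, 9.71 and 6.79 RPKM in ko1 to ko5 and 22.2, 25, 44.0 and 43.5 RPKM in wt1 to wt4, a fall of 4.16-fold without overlap (log2 fold change -2.06, SE 0.20, limma adjusted p = 7.5e-06). Igf1, a growth factor for muscle, was at 1.66 ± 0.717 (SD, n = 5) RPKM in the knock-out and 2.47 ± 0.249 (SD, n = 4) RPKM in the wild type (limma adjusted p = 0.03). The Igf1 call ended with its highest transcript alone (0.63), with no filter (0.074), or without ko1, ko2, ko3, ko5, wt3 or wt4 (0.057 to 0.072). Of the genes of inflammatory and alternative activation only 3 of 18 passed the filter, Ptgs2 among them only through the knock-out. Ptgs2, the inducible cyclooxygenase, rose 3.84-fold. It was at 1.53, 0.643, 1.21, 0.652 and 1.05 RPKM in ko1 to ko5 and 0.608, 0.306, 0.0522 and 0.0354 RPKM in wt1 to wt4. Its wt1 value lay only slightly below the lowest knock-out value, so the size of its rise rests largely on wt3 and wt4. Retnla rose 1.43-fold, but not with the libraries centred (limma adjusted p = 0.066), with quantile normalization (0.099), with the length trend removed (0.38) or with only wt1 and wt2 as wild type (0.12).

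Markers of other cells that share some members were read beside them. Of all tested genes 37.0% rose, 14.8% fell and 51.8% were called in either direction, so calls in lists of few measured genes say little. The T, B and natural killer cell list summed to 1.68 to 2.10 RPKM over 15 genes in knock-out libraries and 0.210 to 1.38 in the wild type, where 1 gene, the T cell receptor subunit Cd3e, passed the filter, only through the knock-out, and rose 3.92-fold. Cd3e was at 1.20, 1.43, 1.61, 1.13 and 1.18 RPKM in ko1 to ko5, most of each summed level there. In wt1 to wt4 it was at 0.0373, 0.0551, 0.711 and 0.832 RPKM, so the size of its rise rests largely on wt1 and wt2. The part of these cells in the rise of Ptprc and other shared genes was not tested. Neutrophil markers summed to 0.337 to 0.777 and 0.424 to 2.04 RPKM, with none of 8 above the filter, and the sums of wt3 and wt4 lay within the knock-out range. Their part in the values of Fcgr3, Tyrobp and Itgb2, which neutrophils share, was not tested. Dendritic cell markers summed to 2.16 to 3.29 and 1.96 to 2.47 RPKM and mast cell markers to 3.12 to 4.13 and 3.79 to 5.79. Only 1 of 8 dendritic cell genes and 4 of 7 mast cell genes passed the filter, and none of these was called. The dendritic cell sums of ko3, ko4 and ko5 (2.72, 3.29 and 3.05 RPKM) lay above every wild-type sum. Those of ko1 and ko2 (2.16 and 2.43 RPKM) did not. In the mast cell list 1 gene was lower with the libraries centred or with quantile normalization, and 2 with the length trend removed. Lymphatic vessel markers, which bear on Lyve1, summed to 6.61 to 8.36 and 6.07 to 8.13 RPKM. Of their 3 measured genes Flt4 fell 1.85-fold, Ccl21a fell 1.26-fold and Pdpn, which fibroblasts also express, rose 1.94-fold. With 51.8% of all tested genes called, calls in 3 genes do not mark a change of lymphatic vessels. The part of these vessels in the fall of Lyve1 was not tested. No gene of these lists was at 0 in all libraries.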

How the data were processed

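RNA was sequenced from the white gastrocnemius in 5 libraries of Gaa knock-out and 4 of wild-type mice. Trizol extraction and TruSeq libraries are recorded per the labels' protocols. The authors deposited 1 table of RPKM values, 1 row for each of 23665 RefSeq transcripts and 1 column per library. TopHat 1.3.2, Bowtie 0.12.7.0, Partek 6.6 and the build mm9 are named per the submitters' processing notes, with their roles, strand and filters not given in the sources used here.

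RPKM values were summed per symbol, and 36 of 37 symbols turned into dates were restored by accession. The tests used limma 3.58.1 (R 4.3.3, eBayes with trend, two-sided) on log2(RPKM + 0.1), for genes with a mean of at least 0.5 RPKM, and were tested on simulated data. Ratios used exact permutation tests. Read estimates used transcript lengths from GENCODE M21 (22640 transcripts matched by accession, Cd68 by symbol). Coordinates are printed for RefSeq promoter windows (GRCm38.p6) only, since the table's build is mm9.

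The members, lists and ratios were chosen with earlier results of these data known. All members are named. Of the other lists, the called genes with the largest log2 fold change, up to 4 each, and Gaa, Csf1, Il34 and Ccl2 are named. The list genes Cd5l, Clec4f, Ly6g and Ltf were not analysed here. A gene counted in the resident macrophage list is not reported here by name. Alternatives were other pseudocounts, filters, scalings, transcript choice, limma without trend and left-out libraries.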

Additional observations from a re-analysis of the deposited data

Results flagged for a closer look

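Some libraries lay apart from the rest of their group, by a gap that was large against the range of the group (past the critical value of Dixon's test). Of 68 groups of values looked at, 8 had such a library, where chance gives about 1 in 20. The library ko4 was far above the other knock-out libraries for Tyrobp (7.49 RPKM), C1qa (14.8 RPKM), C1qc (13.5 RPKM) and Lyz2 (55.6 RPKM), and for the summed level of the members (168.9 RPKM). The other values set apart were a low Trem2 in ko3 (0.777 RPKM), a low Clec7a in wt2 (0.0464 RPKM) and a high C1qc in wt1 (5.29 RPKM). Members come from shared libraries, so these are not independent cases.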

How the results depend on the processing

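No call on a member turned direction under any setting tried. The 20 members that rose did so again under each alternative, except Csf1r with only wt3 and wt4 as wild type (adjusted p = 0.059) and 6 members that were not tested at a filter of 1 RPKM. The count of lower members moved from 1 to 0 with no filter and with only wt3 and wt4 as wild type. It moved to 2, Mertk besides Lyve1, with libraries centred, with quantile normalization, with limma without trend and with the length trend removed (the last chosen after seeing the data). With each library left out in turn it ran from 0 (without wt2 or wt4) to 2 (without ko2 or wt1). Over all tested genes, those higher were 4081 and became 2644 with quantile normalization, and those lower were 1632 and became 2758 with centring, 3056 with quantile normalization and 2648 with the length trend removed. The difference in the log2 ratio of Trem2 to Tyrobp was -0.038 with a pseudocount of 1, a constant larger than every wild-type Trem2 value. With single libraries left out, also chosen after seeing the data, it ran from 0.785 to 1.172 and passed only without ko4 or wt1. That of Lyve1 to Mrc1 ran from -1.072 to -0.781, each time at the smallest p that the splits allow. No paired analysis was possible because the labels give no pairing of knock-out with wild-type libraries. Some low members rest on few estimated reads, Cx3cr1 on 0 to 4 in the wild type.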
